A study of Mus musculus with 8 samples.

Results

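Solute carriers are membrane proteins that move small molecules, such as amino acids, sugars, ions, metals, vitamins and nucleotides, across the plasma membrane and the membranes of organelles. They are numbered by family, and the family largely follows the substrate or the membrane. Family 25 holds mostly carriers of the inner mitochondrial membrane. Family 35 holds mostly those that bring nucleotide sugars into the Golgi and the endoplasmic reticulum, and families 30 and 39 the zinc transporters. Cells are known to change individual transporters when amino acids, osmolytes or antioxidants run short.

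Of 48676 rows in the deposited tables, 368 carried a solute carrier name, 163 of them had a mean of at least 1 RPKM in untreated cells, and 155 remained after 8 were set aside by name. RPKM is the number of reads scaled to the length of the gene and to the reads mapped in the library. The genes were thus chosen by their measured RPKM in untreated cells. Of these 155 rows, 4 are not transporter genes: Slc9a3r1 encodes a scaffold protein that binds a sodium-proton exchanger, Slc4a1ap the kanadaptin protein, Slc7a6os is an opposite-strand neighbour, and Slc39a1-ps is a pseudogene that may share reads with Slc39a1. These 4 rows are counted in the substrate class of their family number, so class counts and medians below include them. The 8 genes set aside included the phosphate transporter gene Slc20a1, with 85.0 and 64.7 RPKM under KCl against 21.5 and 20.7 RPKM in untreated cells. They also included Slc7a11, a subunit of the cystine and glutamate exchanger, with 6.88 and 7.78 RPKM under H2O2 against 0.521 and 1.48 RPKM in untreated cells.

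The RNA came from nuclei of NIH3T3 cells, an established line of mouse embryonic fibroblasts, in 4 groups of 2 libraries each: heat shock at 44 °C for 2 h (HS), osmotic stress with 200 mM KCl for 2 h (KCl), oxidative stress with 0.2 mM H2O2 for 2 h (H2O2), and no treatment (UN). The study's title names readthrough, transcription that runs past the end of a gene under stress, as its subject. Nuclear RNA holds unspliced and newly made transcripts, so a level here is not that of the mature cytoplasmic mRNA or of the protein. Nothing in the labels ties the replicates of a group to separate cultures, so every p-value below measures the spread between these libraries, which may be technical.

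Summed RPKM ranged from 503400 to 771700 in 7 of the 8 libraries and was 1943000 in KCl replicate 1, where a single row, AC113316.1, held 1025000 and the nuclear RNA Malat1 was listed at 0. Read counts were not part of the tables. Depth was only estimated relative to the untreated library of the same table, at 0.974 to 1.11 times that library. The estimate takes the most frequent low RPKM among olfactory receptor rows as that of a single fragment, an assumption that was not tested. Over the 155 rows, replicates of a group correlated at r = 0.977 to 0.983 on the log2 scale (across genes, which are not independent replicates), and no row was listed at 0 in any library. Of 8 fibroblast markers, 6 or 7 reached 1 RPKM in both libraries in every group, and their summed level was 1623 and 1426 RPKM in HS, 2228 and 1836 in KCl, 1835 and 1701 in H2O2, and 3149 and 2239 in UN. Of 12 markers of other cell types, Cd68 and Des reached 1 RPKM in both libraries of each group. The sums of these 12 were 11.4 and 11.5 RPKM in HS, 24.7 and 24.1 in KCl, 32.3 and 31.1 in H2O2, and 33.8 and 21.1 in UN, with Krt18, Adipoq, Epcam and Myod1 at 0 in both UN libraries. Their part in the results was not tested. In such bulk samples, fewer cells that make a transcript and less of it per cell cannot be told apart.

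In untreated cells the mitochondrial carriers held the largest share of the summed RPKM of the 8 substrate classes. Slc25a4 and Slc25a5, which exchange ADP and ATP across the inner mitochondrial membrane, and Slc25a3, which imports phosphate, had the 3 highest levels. Slc25a4 had 303 and 328 RPKM, Slc25a5 236 and 240 RPKM, and Slc25a3 236 and 198 RPKM, so the last 2 overlapped. Slc25a4 and Slc25a5 are close paralogs, and reads of their shared sequence could have been split between them in counting. The 35 mitochondrial carriers together held 44.1% of the summed RPKM of the 155 rows, although their median of 8.59 RPKM was close to the median of 8.83 RPKM over all 155.

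The next levels belonged to carriers of several organelles. Slc39a7, which releases zinc from the endoplasmic reticulum and Golgi, averaged 82.2 ± 5.53 RPKM in untreated cells (SD, n = 2, as for all means here). Slc35b1, which exchanges ATP and ADP across the endoplasmic reticulum membrane, averaged 76.4 ± 3.26 RPKM. Slc25a39, which takes glutathione into mitochondria, averaged 61.4 ± 17.0 RPKM. The monocarboxylate transporter gene Slc16a1, which carries lactate and pyruvate, averaged 59.0 ± 0.578 RPKM, and Slc1a5, which carries glutamine, 58.3 ± 15.4 RPKM. Slc25a11, the oxoglutarate and malate carrier of mitochondria, averaged 55.7 ± 1.91 RPKM and Slc38a10, of an amino acid family, 55.6 ± 13.5 RPKM. Within these SDs, Slc39a7 and Slc35b1 could not be ordered from each other, and of the other 5 only Slc16a1 and Slc25a11 did not overlap.

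Substrate classes differed more in their highest genes than in their medians. The 23 amino acid and peptide transporters had a median of 6.38 RPKM and 12.7% of the sum. The 22 metal and heme transporters held 12.9% with a median of 10.3 RPKM, led by Slc39a7 and the heme transporter gene Slc48a1 at 35.3 ± 9.26 RPKM. These figures describe untreated cells only and rest on the same values that chose the genes.

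The 22 transporters of inorganic ions and protons, with a median of 10.6 RPKM, were led by Slc12a2 at 34.0 ± 3.97 RPKM, a sodium, potassium and chloride cotransporter that loads cells with salt, and Slc12a4 at 26.8 ± 5.79 RPKM, which lets potassium and chloride out. The 19 rows of family 35 held 9.24% of the sum, led by Slc35b1 and by Slc35b2 at 36.0 ± 6.38 RPKM, which carries the sulfate donor into the Golgi. Among 14 carriers of vitamins, nucleosides, fatty acids and related molecules, Slc29a1, a nucleoside transporter, averaged 39.5 ± 13.0 RPKM and Slc27a1, a fatty acid transporter, 23.0 ± 1.12 RPKM. The 12 transporters of monocarboxylates and other organic ions, led by Slc16a1 and Slc10a3 (11.3 ± 4.0 RPKM), and the 8 of sugars and sugar phosphates had the lowest medians, 4.3 and 5.53 RPKM. In the sugar class, Slc50a1, a sugar transporter found in the Golgi, averaged 17.3 ± 2.88 RPKM and Slc37a4, which takes glucose phosphate into the endoplasmic reticulum, 8.37 ± 0.944 RPKM.

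The threshold of 1 RPKM lay between Slc25a27, Slc43a2 and Slc25a29, with means of 1.05, 1.08 and 1.11 RPKM, and Slc38a3, Slc39a8 and Slc25a2, with 0.808, 0.78 and 0.68 RPKM. Of 205 rows under it, 3 reached 1 RPKM in both libraries of a stress. Slc5a5, the iodide transporter gene, had 1.35 and 1.23 RPKM in HS and 6.11 and 1.48 RPKM in H2O2, against 0.384 and 0.218 RPKM in UN. Slc23a3 had 2.17 and 1.12 RPKM and the serotonin transporter gene Slc6a4 1.54 and 1.18 RPKM in H2O2, against at most 0.188 RPKM in UN. These 3 were singled out for their values, so no test result is given for them. They were among the rows of the fit described below.

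**Figure D1:**
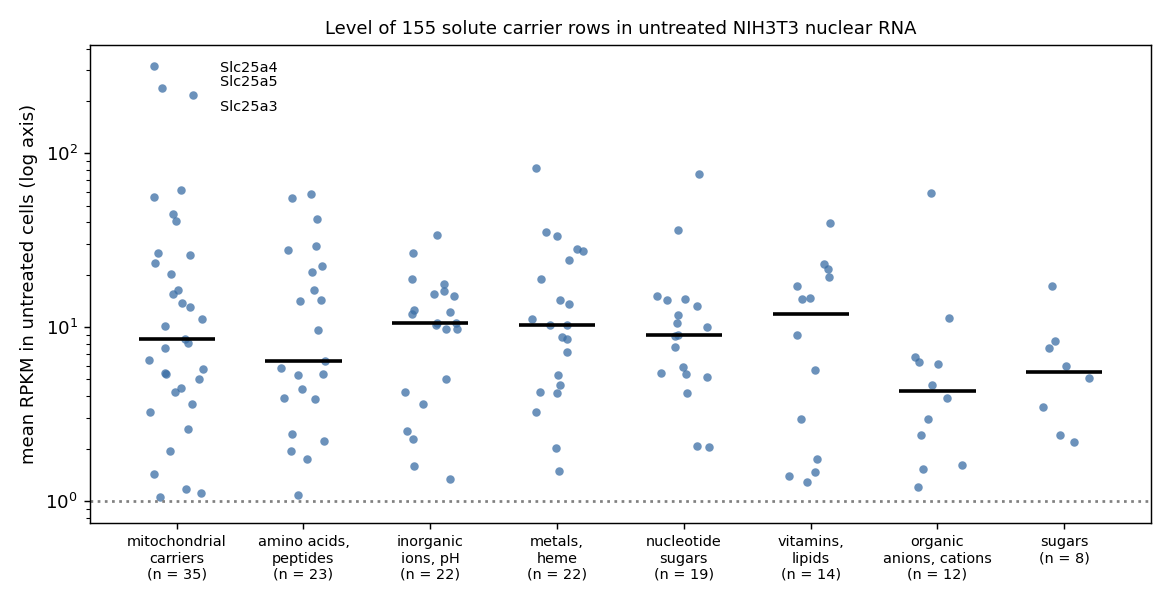
Mean RPKM of the 2 untreated libraries (log axis) for each of the 155 rows, by substrate class; each point is a row, black bars are class medians and the dotted line is the threshold of 1 RPKM that chose the rows. Slc25a4, Slc25a5 and Slc25a3 stand above every other row, while class medians lie between 4.3 and 11.8 RPKM.

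After heat shock 3 of the 155 genes rose and 6 fell relative to untreated cells. The risers were Slc25a46, a protein of the outer mitochondrial membrane that takes part in mitochondrial fusion and fission, Slc25a32, the mitochondrial folate carrier, and Slc35e2, a family 35 member without an established substrate. The genes that fell were Slc38a4 and Slc7a1, which bring neutral and cationic amino acids into the cell, Slc35b1, Slc39a7, Slc25a5 and Slc50a1. Calls are limma adjusted p-values under 0.05 on log2(RPKM + 0.5) over all 16056 rows tested, and folds and log2 changes are on that scale, where the pseudocount makes changes of low genes look smaller. The 9 called genes make up 5.81% of the 155, close to the 6.62% called over all rows tested (2.54% higher and 4.08% lower) and the 6.73% called over the 13162 rows with a mean of at least 1 RPKM in untreated cells. The rule used the same untreated libraries as this contrast.

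Slc25a46 had 17.5 and 19.6 RPKM in HS, 20.5 and 15.4 in KCl, 7.99 and 10.7 in H2O2, and 8.35 and 8.84 in UN. Both HS libraries, and both KCl libraries, lay above every H2O2 and UN library. The rise after heat shock was 2.1-fold (log2 1.07, SE 0.2, limma adjusted p = 0.031). For Slc25a32, which carries the cofactor of one-carbon metabolism, the values were 22.1 and 22.3 RPKM in HS, 25.2 and 18.7 in KCl, 10.9 and 9.9 in H2O2, and 10.6 and 11.5 in UN. For this gene too, the HS and KCl libraries lay above every H2O2 and UN library, with a rise after heat shock of 1.96-fold (log2 0.97, SE 0.17, limma adjusted p = 0.027). Slc35e2 had 9.77 and 9.43 RPKM in HS, 6.72 and 6.54 in KCl, 6.15 in each H2O2 library, and 6.27 and 5.57 in UN. Here the HS libraries alone stood apart from the other 6, by 1.58-fold over UN (log2 0.66, SE 0.13, limma adjusted p = 0.037).

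Slc38a4 had 6.77 and 8.04 RPKM in HS, 9.22 and 12.0 in KCl, 10.3 and 10.8 in H2O2, and 14.0 and 14.4 in UN. HS was lowest and UN highest with no overlap between them, and the level in HS was 0.536 times that in UN (log2 -0.90, SE 0.17, limma adjusted p = 0.031). Slc7a1, the carrier of arginine and lysine, had 11.5 and 13.0 RPKM in HS, 15.1 and 14.5 in KCl, 23.2 and 25.5 in H2O2, and 23.4 and 18.2 in UN. The HS and KCl libraries lay below all others, and the ratio of HS to UN was 0.6 (log2 -0.74, SE 0.16, limma adjusted p = 0.046).

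Slc35b1 had 39.8 and 45.4 RPKM in HS, 70.6 and 82.1 in KCl, 80.3 and 78.3 in H2O2, and 74.1 and 78.7 in UN. The other 3 groups overlapped one another and HS lay below them all, at 0.56 times UN (log2 -0.84, SE 0.14, limma adjusted p = 0.026). Slc39a7, the zinc carrier of the same membrane system, had 48.6 and 45.9 RPKM in HS, 60.8 and 64.0 in KCl, 80.0 and 67.2 in H2O2, and 86.1 and 78.3 in UN. HS was again below the rest, at 0.577 times UN (log2 -0.79, SE 0.14, limma adjusted p = 0.029). Slc25a5 had 143 and 146 RPKM in HS, 253 and 259 in KCl, 210 and 201 in H2O2, and 236 and 240 in UN.

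For Slc25a5 no group overlapped another, and HS was 0.607 times UN (log2 -0.72, SE 0.14, limma adjusted p = 0.035). Its paralog Slc25a4, with 310 and 320 RPKM in HS against 303 and 328 RPKM in UN, differed by a log2 change of 0.00 (95% interval -0.39 to 0.39). Slc50a1 had 10.4 and 10.2 RPKM in HS, 16.9 and 17.0 in KCl, 13.4 and 13.0 in H2O2, and 19.3 and 15.2 in UN. The HS libraries were the lowest of the 8, at 0.611 times UN (log2 -0.71, SE 0.14, limma adjusted p = 0.040).

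**Figure D2:**
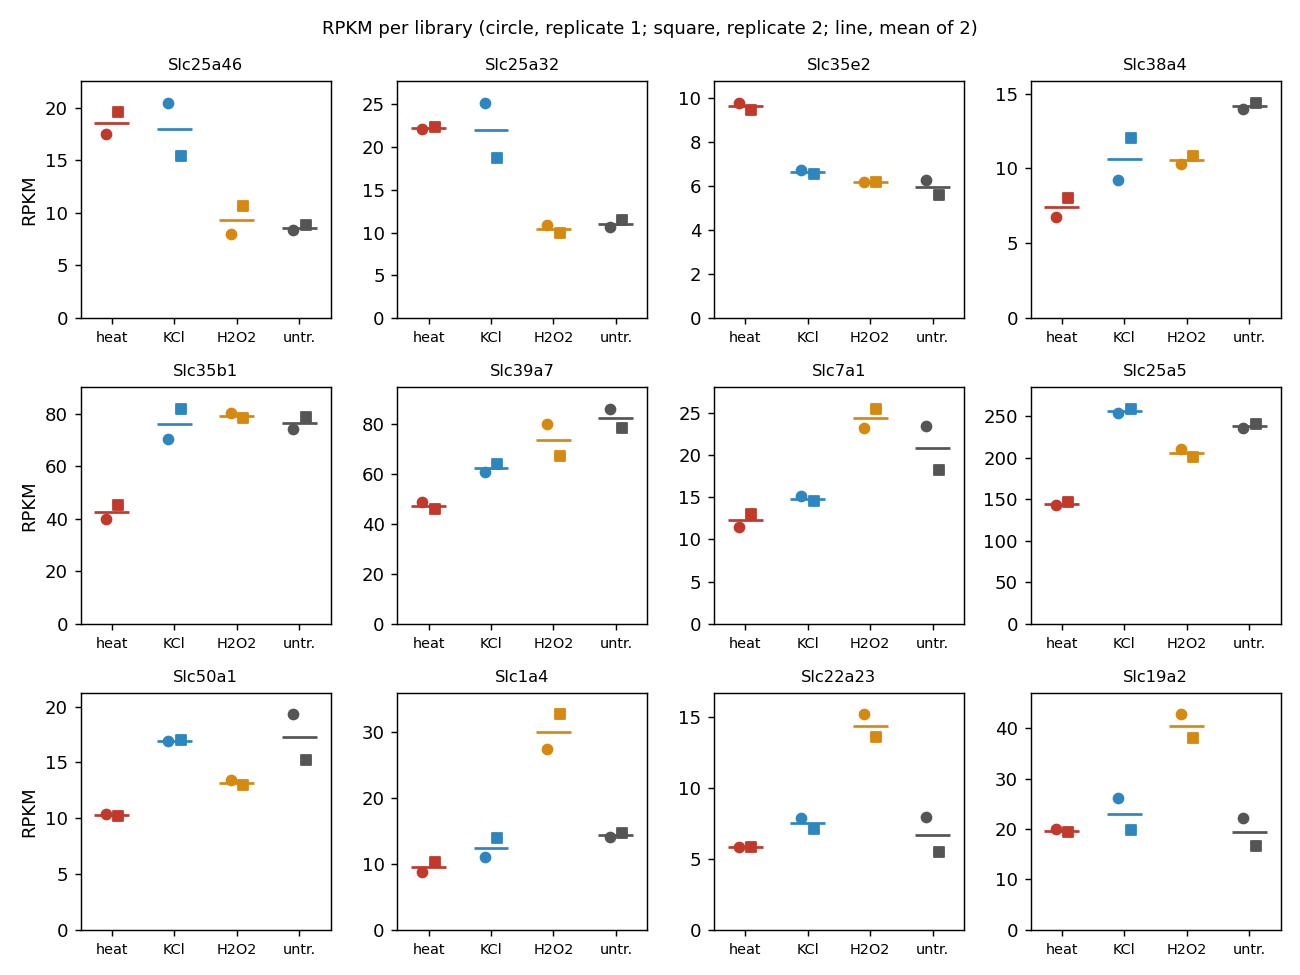
RPKM in each library (circles, replicate 1; squares, replicate 2; lines, means of 2) for the 10 genes called against untreated cells in any stress and for Slc22a23 and Slc19a2, which missed the threshold under H2O2; groups run from heat shock, KCl and H2O2 to untreated. Slc25a46 and Slc25a32 are high in heat shock and KCl, Slc35e2 in heat shock only, and Slc1a4, Slc22a23 and Slc19a2 in H2O2 only.

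By substrate class, the lowest medians after heat shock were those of the ion transporters, the 8 sugar transporters (-0.41, with 1 called) and the 14 carriers of vitamins and related molecules (-0.35, with 0 called). Of all 16056 rows tested, 9371 had a log2 change below 0 and 4098 an unadjusted limma p under 0.05. The log2 changes of the 22 ion and proton transporters had a median of -0.44, with 21 of 22 below 0. Of these 22, 0 were called as deposited (11 at an unadjusted limma p under 0.05). Slc12a2 (21.6 and 22.6 RPKM in HS against 31.2 and 36.8 RPKM in UN, log2 -0.61, limma adjusted p = 0.079) and Slc12a4 (16.0 and 14.5 RPKM against 30.9 and 22.7 RPKM in UN, log2 -0.78, limma adjusted p = 0.078) were among them without passing the test. The 23 amino acid and peptide transporters had a median of -0.25, with 21 of 23 below 0 as deposited and 11 of 23 after scaling to a common sum, and 2 were called lower. The 35 mitochondrial carriers had a median of 0.00, with 2 called higher and 1 lower, and the 19 rows of family 35 a median of 0.03, with 1 called each way.

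The median over all rows tested was -0.09 and that over the 155 genes -0.19, with 108 of 155 below 0. Within the first table the 155 had a median of -0.33, and within the second -0.06, beside -0.17 and 0.00 over all rows. Scaling each library to a common sum over rows under 10000 RPKM moved the median of all rows to 0.15 and that of the 155 to 0.10, so that the sign of the median depends on the scaling. Relative to all rows, the ion transporters stayed at -0.37 to -0.30 and the amino acid transporters at -0.16 to -0.14 under the 4 scalings tried. A single gene, Slc25a46, changed at least 2-fold, which is 0.645% of the 155 beside 7.87% of all rows tested and 7.19% of those with at least 1 RPKM in untreated cells. The 95% intervals, with a median half-width of 0.46 on the log2 scale, lay within a 2-fold change either way for 112 of 155.

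The 3 higher and 6 lower calls became 5 higher and 6 lower under median-of-ratios scaling, 3 higher and 4 lower under quantile normalization and 2 higher and 0 lower under a common sum. Slc25a32 and Slc25a46 were called higher under all 4. The genes called were not the same. Median-of-ratios scaling added Slc30a4 and Slc35a5 as higher and Slc9a8, an ion transporter, as lower (log2 -0.65, limma adjusted p = 0.04). Slc25a5 lost its call under each of the 3 other scalings. Slc35b1, Slc38a4 and Slc39a7 lost theirs under quantile normalization and a common sum. The calls after heat shock rest on each library of the groups compared. Without HS replicate 1, HS replicate 2, UN replicate 1 or UN replicate 2 in turn, 0 of the 155 were called by limma, and 2 were called without either H2O2 library, where the remaining library of a group is assumed to vary like the others. The log2 changes kept their sign throughout, at 0.99 to 1.37 for Slc25a46, 0.92 to 1.27 for Slc25a32 and -0.93 to -0.53 for Slc35b1. For Slc25a5 the size varied more, from -0.74 to -0.17.

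**Figure D3:**
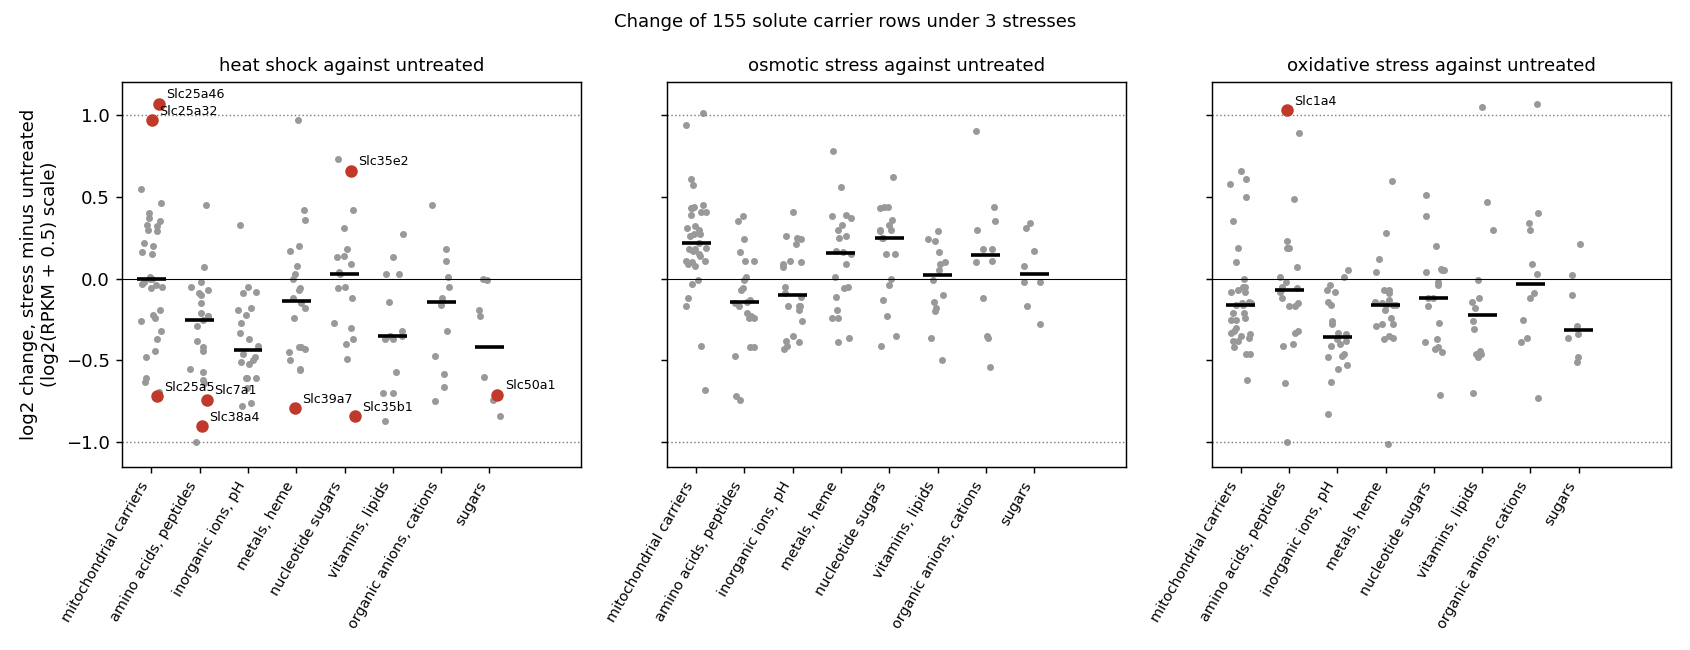
Log2 change of each of the 155 rows (log2(RPKM + 0.5) scale, stress minus untreated) by substrate class, in 1 panel per stress; red points passed limma's adjusted p under 0.05, black bars are class medians and dotted lines mark 2-fold changes. Most points lie within 2-fold; 9 rows were called after heat shock, 0 after KCl and 1 after H2O2.

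Under osmotic stress 0 of the 155 genes passed limma's threshold, beside 0.691% of all rows tested (0.43% higher and 0.262% lower). At an unadjusted limma p under 0.05 there were 26 of 155. The same threshold was passed by 3545 of all 16056 rows tested. It was passed by 3143 of the 13162 rows with a mean of at least 1 RPKM in untreated cells. Slc25a46 had the highest change, 2.01-fold (20.5 and 15.4 RPKM in KCl against 8.35 and 8.84 in UN, log2 1.01, SE 0.2, limma adjusted p = 0.083). Slc25a32 (1.92-fold, limma adjusted p = 0.072) and Slc22a21, a carnitine transporter of the mouse (8.89 and 6.82 RPKM in KCl against 3.72 and 4.14 in UN, 1.87-fold, limma adjusted p = 0.087), had KCl libraries wholly above UN. Slc22a21 lies in a family of close paralogs, so its reads could be shared in counting. Without KCl replicate 2, the log2 changes were 1.21 for Slc25a46, 1.15 for Slc25a32 and 1.08 for Slc22a21. They then rest on KCl replicate 1 alone, the library with the outlying summed RPKM and no Malat1. KCl replicate 2 had the lower value for all 3 genes.

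The median log2 change under KCl was 0.10 over the 155 genes and 0.18 over all rows tested. With median-of-ratios scaling, which sets the typical gene to no change, these were -0.09 and 0.01, so again only the position relative to all rows can be read. That position was -0.32 for the amino acid transporters, -0.28 for the ion transporters and 0.04 for the mitochondrial carriers as deposited, and changed by less than 0.1 under each other scaling. Of the transporter genes known for osmotic adaptation, Slc6a6, Slc5a3 and Slc38a2 were among those set aside, and Slc6a12, the betaine transporter gene, was kept by the rule. It had 0.465 and 2.45 RPKM in KCl against 0.71 and 2.77 RPKM in UN, with overlapping groups. In all 4 groups Slc6a12 was at least 1.5-fold higher in the second table than in the first, which was so for no other of the 155.

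Under oxidative stress 1 gene rose, Slc1a4, which carries alanine, serine and cysteine into the cell. That is 0.645% of the 155 beside 1.48% of all rows tested (1.29% higher and 0.193% lower) and 0.661% of the rows with a mean of at least 1 RPKM in untreated cells, and 0 fell. Slc1a4 had 8.79 and 10.3 RPKM in HS, 11.0 and 13.9 in KCl, 27.4 and 32.6 in H2O2, and 14.1 and 14.7 in UN. Both H2O2 libraries lay above the other 6, and the rise over UN was 2.04-fold (log2 1.03, SE 0.17, limma adjusted p = 0.049). This call is at the edge of the threshold: 0 of the 155 were called in each of the 8 fits that left out 1 library, with a pseudocount of 0.1, with a filter of 1 RPKM, with only the 2 groups compared or after scaling to a common sum, and Slc1a4 also lost its call under quantile normalization.

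Slc22a23 and Slc19a2, with H2O2 libraries wholly above the other 6, as some further genes had, came near the threshold without passing the test. Slc22a23, an orphan member of the organic ion family, had 15.2 and 13.6 RPKM in H2O2 against 7.93 and 5.47 RPKM in UN (2.1-fold, log2 1.07, SE 0.19, limma adjusted p = 0.054). Slc19a2, the thiamine transporter gene, had 42.7 and 38.1 RPKM in H2O2 against 22.1 and 16.7 RPKM in UN (2.07-fold, log2 1.05, SE 0.19, limma adjusted p = 0.056). With median-of-ratios scaling both were called with Slc1a4, at limma adjusted p-values of 0.028, 0.028 and 0.04. At the other end, Slc36a1, which moves amino acids out of lysosomes with protons, had 1.42 and 2.57 RPKM in H2O2 against 4.05 and 4.72 RPKM in UN (log2 -1.0, limma adjusted p = 0.1). Slc39a13, a zinc transporter gene of the Golgi and its vesicles, had 12.5 and 13.4 RPKM in H2O2 against 33.4 and 21.2 RPKM in UN (log2 -1.01, limma adjusted p = 0.13). These last 4 were singled out after their values were seen, since with Slc1a4 they are the 5 genes with at least a 2-fold change, 3.23% of the 155 beside 5.65% of all rows tested and 3.18% of those with at least 1 RPKM in untreated cells.

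The 22 ion transporters again lay low, with a median log2 change of -0.36 under H2O2 and 20 of 22 below 0, none called. The median was -0.16 over the 155, -0.10 over all rows tested and -0.14 over rows with at least 1 RPKM in untreated cells. Of all 16056 rows tested, 9944 lay below 0. Within the first table the 155 had a median of -0.32 and within the second -0.06, beside -0.17 and -0.02 over all rows. The 3 stresses share the untreated libraries, so the low medians of this class under each of them are not independent of one another.

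The promoter of Slc1a4 is shown because it was the one gene called under H2O2 and holds a sequence known as the amino acid response element, the site bound by the stress factor ATF4. The letters TTGCATCA and their reverse complement were searched on both strands of the 300 bases around each start in the RefSeq promoter table (GRCm38.p6, 250 bases before to 50 after the start), which held 167 promoters of 121 of the 155 genes. They occurred in 2 of these, 1.2%, beside 0.895% of all 32851 promoters. The windows run 5′ to 3′ on the strand of the gene, with the motif in capitals.
Slc1a4, chr11:20332710-20332813, minus strand: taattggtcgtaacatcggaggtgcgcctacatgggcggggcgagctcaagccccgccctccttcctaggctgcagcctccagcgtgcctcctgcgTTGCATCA
Slc50a1, chr3:89270706-89270805, minus strand: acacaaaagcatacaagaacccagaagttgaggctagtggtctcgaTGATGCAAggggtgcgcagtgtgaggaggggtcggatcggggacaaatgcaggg
The motif begins 4 bases before the start of Slc1a4, and 189 bases before that of Slc50a1, where it lies in the reverse orientation. Slc50a1 was not called under H2O2 (13.4 and 13.0 RPKM against 19.3 and 15.2 RPKM in UN, log2 -0.36, limma adjusted p = 0.26). A match is a description of these letters and not a bound site.

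Other stress motifs were searched in the same promoters. The heat shock element, written GAANNTTC or TTCNNGAA, occurred in 11.4% of the solute carrier promoters beside 15.1% of all. The antioxidant response element TGACNNNGC occurred in 18.0% beside 12.4%, and the tonicity element TGGAAA in 13.8% beside 21.4%. No promoter entry matched Slc25a46, Slc25a32 or Slc35e2, the 3 genes that rose after heat shock.

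Between stresses, Slc1a4 gave the firmest difference, lower in HS than in H2O2 (8.79 and 10.3 RPKM against 27.4 and 32.6 RPKM) at 0.33 times the level (log2 -1.60, SE 0.17, limma adjusted p = 0.007). The threshold did not use the stress libraries, but 8 genes were set aside by name with results of these data known, so contrasts between stresses are not independent of how the genes were chosen. For HS against H2O2, 7 genes were higher and 13 lower, 12.9% of the 155 beside 14.2% of all rows tested (5.76% higher and 8.4% lower). For KCl against H2O2, 21 were higher and 8 lower, 18.7% of the 155 beside 19.3% of all rows (14.2% higher and 5.14% lower). For HS against KCl, 0 were higher and 3 lower, 1.94% of the 155 beside 8.2% of all rows (1.78% higher and 6.42% lower).

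In HS against H2O2, the 5 largest positive changes belonged to Slc25a32 (log2 1.06, limma adjusted p = 0.016), Slc25a46 (0.97, 0.028), Slc36a1 (0.93, 0.05 after rounding), Slc9a3r1 (0.88, 0.021) and Slc25a38, the mitochondrial glycine carrier used in heme synthesis (0.71, 0.03). Slc9a3r1 had 20.7 and 18.3 RPKM in HS and 21.9 and 19.4 in KCl, against 9.85 and 10.9 in H2O2, while UN lay between at 17.1 and 13.8. Slc25a38 had 13.0 and 11.3 RPKM in HS against 7.67 and 6.79 RPKM in H2O2. Neither overlapped between HS and H2O2.

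Lower in HS than in H2O2, besides Slc1a4, were Slc22a23 (log2 -1.23, limma adjusted p = 0.015), Slc25a47 (-1.21, 0.025), Slc25a42, which takes coenzyme A into mitochondria (-1.04, 0.016), and Slc19a2 (-1.02, 0.023). Slc25a47, a mitochondrial carrier known from liver, was low throughout, with 1.22 and 0.928 RPKM in HS, 1.21 and 0.839 in KCl, 3.67 and 2.63 in H2O2, and 2.19 and 1.69 in UN. Its upstream neighbour on the same strand, Yy1, had 30.3 and 30.8 RPKM in HS against 19.2 and 19.0 RPKM in H2O2, the opposite order. Slc25a42 had 1.82 and 1.77 RPKM in HS against 4.65 and 3.85 RPKM in H2O2. Each of these genes had HS libraries wholly below those of H2O2.

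The call of Slc1a4 between HS and H2O2 held under all 9 other settings, at a log2 change of -1.68 to -1.29, and in 7 of 8 fits that left out 1 library; without HS replicate 1 its limma adjusted p was 0.069. The count of 20 was less stable, with 0 called without HS replicate 1, 1 without HS replicate 2, 1 without H2O2 replicate 1 and 3 without H2O2 replicate 2. Scaling to a common sum gave 13 higher and 3 lower in place of 7 and 13.

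KCl against H2O2 shares the H2O2 libraries with HS against H2O2, and both mitochondrial carriers Slc25a32 and Slc25a46 were among the 5 largest positive changes. Slc25a32 differed by log2 1.03 (SE 0.17, limma adjusted p = 0.022) and Slc25a46 by 0.91 (SE 0.2, 0.03). Slc9a3r1 (0.96, 0.022), Slc12a8 of the cation and chloride cotransporter family (0.94, 0.028) and Slc22a21 (0.88, 0.028) were also higher in KCl. Slc12a8 had 1.57 and 1.39 RPKM in KCl against 0.394 and 0.687 RPKM in H2O2, and UN was close to KCl at 1.34 and 1.32 RPKM. The deposited tables hold a second row named Slc12a8, which lies under the threshold. The row used here stands next to Slc12a9, among genes of chromosome 5, whereas GENCODE M21 places Slc12a8 on chromosome 16. These values may therefore not be those of the Slc12a8 gene.

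Of the 35 mitochondrial carriers, 11 were higher in KCl than in H2O2 and 2 lower as deposited, 37.1% of the class beside 19.3% of all rows and 20.1% of rows with at least 1 RPKM in untreated cells, but with median-of-ratios scaling 2 were higher and 3 lower. Slc25a4 was among them, with 413 and 437 RPKM in KCl against 263 and 244 RPKM in H2O2 (log2 0.74, SE 0.16, limma adjusted p = 0.03). The class median was 0.41, beside 0.27 over all rows tested and 0.34 over rows with at least 1 RPKM in untreated cells. Lower in KCl were Slc25a47 (log2 -1.26, limma adjusted p = 0.025), Slc1a4 (-1.24, 0.016), Slc35d1, which carries nucleotide sugars used for glycosaminoglycans (-0.92, 0.024), Slc22a23 (-0.89, 0.029) and Slc19a2 (-0.81, 0.036). Slc35d1 had 4.24 and 3.7 RPKM in KCl against 8.18 and 7.72 RPKM in H2O2, with UN between at 5.28 and 5.57 RPKM.

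The split between higher and lower genes in KCl against H2O2 came with a median over all rows of 0.27, and it turned with the scaling. Median-of-ratios scaling brought that median to 0.00 and gave 3 higher and 11 lower, quantile normalization gave 3 and 11, and scaling to a common sum gave 1 and 3. Of the 5 genes named as lower, all 5 remained lower in sign under each scaling. By limma, 0 of the 155 were called without HS replicate 1, HS replicate 2, H2O2 replicate 1, H2O2 replicate 2 or KCl replicate 1, and 13 without KCl replicate 2.

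In HS against KCl the 3 genes that were lower were Slc35b1 (39.8 and 45.4 RPKM against 70.6 and 82.1 RPKM, log2 -0.83, limma adjusted p = 0.025), Slc25a5 (143 and 146 RPKM against 253 and 259 RPKM, log2 -0.82, limma adjusted p = 0.025) and Slc50a1 (10.4 and 10.2 RPKM against 16.9 and 17.0 RPKM, log2 -0.69, limma adjusted p = 0.037). The HS libraries are the same as in the comparison with UN. Median-of-ratios scaling and quantile normalization each gave 1 gene higher and 0 lower, and scaling to a common sum gave 0. Without HS replicate 1, HS replicate 2, KCl replicate 1 or KCl replicate 2 the limma count was 0, and without either H2O2 library it was 1.

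**Figure D4:**
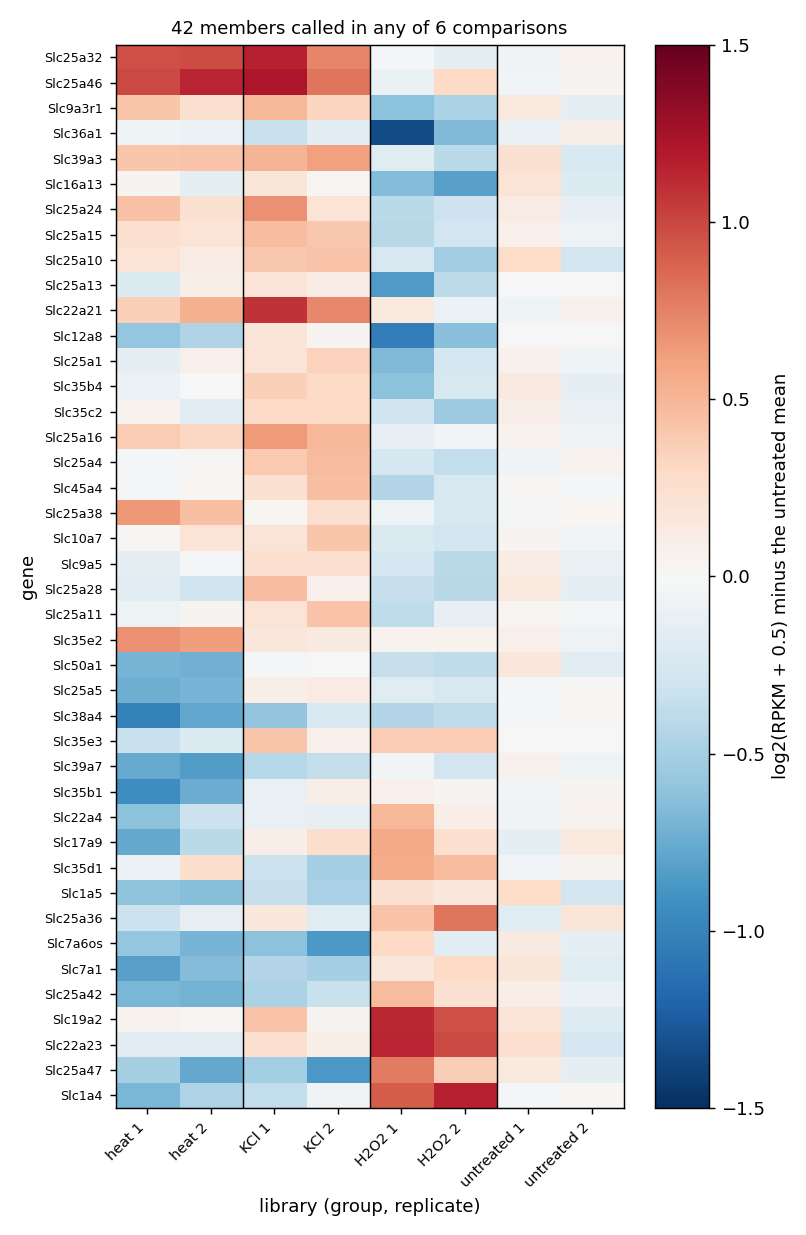
Log2(RPKM + 0.5) minus the untreated mean for the 42 rows called in any of the 6 comparisons (columns, the 8 libraries; rows sorted by H2O2 minus the mean of heat shock and KCl). Slc25a32 and Slc25a46 at the top are red in the heat shock and KCl libraries, and Slc19a2, Slc22a23, Slc25a47 and Slc1a4 at the bottom are red in the H2O2 libraries.

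**Figure D5:**
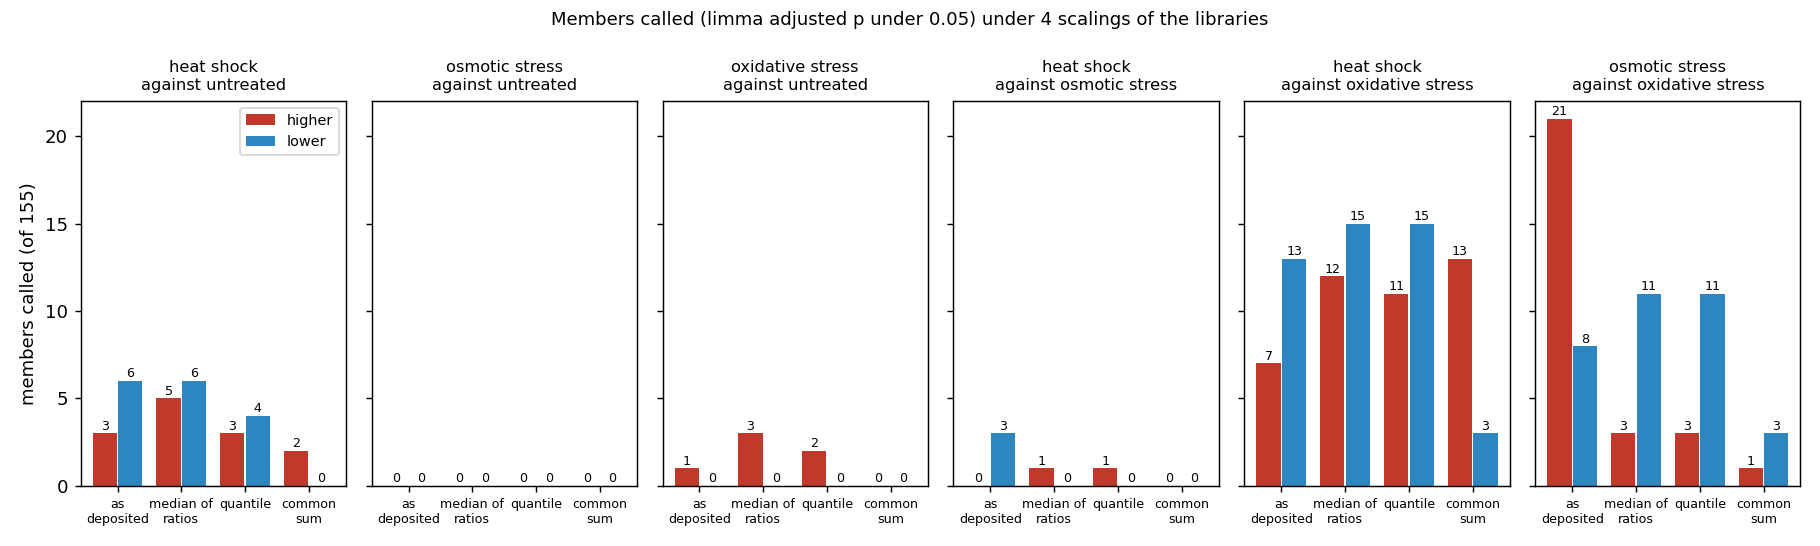
Number of the 155 rows called higher (red) or lower (blue) by limma in each of the 6 comparisons, with libraries as deposited and under 3 other scalings. Against untreated cells the counts stay between 0 and 6 in each direction, whereas KCl against H2O2 gives 21 higher and 8 lower as deposited and 3 and 11 with median-of-ratios scaling.

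Altogether 42 of the 155 genes were called in at least 1 of the 6 comparisons and 113 in none, while 10 were called against untreated cells and 145 were not. The same totals were not counted over all rows tested, so only the shares given above for single comparisons can be set against all rows. A gene that was not called is not shown to be unchanged. Among neighbours upstream on the same strand in GENCODE M21, Ubl3, before Slc7a1, rose after heat shock (30.4 and 29.9 RPKM in HS against 16.8 and 13.7 in UN, log2 0.97, limma adjusted p = 0.024) while Slc7a1 fell. Dpys, before Slc25a32, was at most 0.207 RPKM in every library. Gm6665, before Slc25a46, had 0.91 and 1.14 RPKM in HS against 4.57 and 2.25 RPKM in UN (limma adjusted p = 0.061). Between stresses, called neighbours went both ways. Efna1, before Slc50a1, was lower in HS than in KCl, as Slc50a1 was (log2 -0.83, limma adjusted p = 0.047). Mrpl12, before Slc25a10, was higher in KCl than in H2O2, as Slc25a10 was (log2 0.9, limma adjusted p = 0.023). Fam117a and Pdlim4 were lower in HS than in H2O2, as Slc35b1 and Slc22a4 were. Fam117a was low and stood out in H2O2 (0.0536 and 0.0555 RPKM in HS, 1.13 and 0.522 in H2O2, 0.101 and 0.0874 in UN), whereas Slc35b1 stood out in HS. Ubl3, Yy1 and Smpd3 moved against Slc7a1, Slc25a47 and Slc7a6os. Readthrough into these genes was not tested. Of the 155 genes, 24 overlap a protein-coding gene, 21 of them on the opposite strand only, and the strand that was counted is not given in the sources used here.

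Other membrane transport genes were counted in the same fit. Among ion pump genes, Atp2a2, the calcium pump of the endoplasmic reticulum, fell after heat shock (log2 -0.73, limma adjusted p = 0.045). Of 15 tested ABC transporter genes, 2 fell after heat shock, Abcb10 (log2 -1.11, limma adjusted p = 0.018) and Abcb8 (-0.76, 0.049), both of the inner mitochondrial membrane. Of 15 genes of cell volume control, 15 of the vacuolar proton pump and 6 of transporter partner proteins, 0 were called after heat shock. Under KCl 0 genes of these lists were called, and under H2O2 only Aqp5, a water channel gene, which fell (42.2 and 40.7 RPKM in H2O2 against 89.6 and 75.4 in UN, log2 -0.98, limma adjusted p = 0.037). The median log2 change of the ABC transporters after heat shock was -0.40, beside -0.09 over all rows tested.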

How the data were processed

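Libraries of ribosome-depleted nuclear RNA were strand-specific, per the labels' protocols. Bowtie, SAMtools and Cufflinks with the mouse build mm9 are named in the submitters' processing notes; the sources used here give no versions, annotation, filters or counted strand. Each gene row holds RPKM values made by the authors and deposited in 2 tables that each hold 1 library per group, per the file headers.

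Values were used as deposited. In limma 3.58.1 (R 4.3.3), 1 linear model of log2(RPKM + 0.5) with 4 groups was fitted to all 8 libraries, with a mean trend, over the 16056 rows that reached 0.5 RPKM in 2 or more libraries (prior degrees of freedom 2.59, residual 4). Two-sided p-values were adjusted over these rows (Benjamini-Hochberg) and called under 0.05, and the script was tested on simulated data. An exact permutation test of 2 against 2 libraries cannot go below p = 0.333. All 155 members passed the filter.

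Members, classes, gene lists and motifs were chosen with earlier results of these data known. Classes follow family numbers and are rough: Slc5a6, for example, carries vitamins, and Slc25a46, counted with the mitochondrial carriers, is a protein of the outer mitochondrial membrane. Genes were named as up to 10 called per direction against untreated cells, up to 5 between stresses, the 10 highest in untreated cells, the 2 highest per class, the 3 on each side of the threshold, and called genes of the other lists, of which 1 result is not reported here. All 155 names matched GENCODE M21 (GRCm38), 1 under an older name; as the build differs from mm9, no coordinates were carried over, and promoter coordinates are those of RefSeq.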

Additional observations from a re-analysis of the deposited data

How the results depend on the processing

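No log2 change of a called gene changed sign under any alternative run. The number of the 155 genes called by limma moved as follows. HS against UN went from 9 to 4 with no filter on low values, 2 with a common sum and 0 with only the 2 groups compared, and to 0 to 8 without single libraries. KCl against UN was 0 under the other scalings, pseudocounts and filters and with only the 2 groups, and 0 to 3 without single libraries. H2O2 against UN went from 1 to 0 with a pseudocount of 0.1, a filter of 1 RPKM, a common sum or only the 2 groups, 3 with median-of-ratios scaling, 2 with quantile normalization (Slc1a4 not among them), and 0 to 0 without single libraries. HS against KCl went from 3 to 1 with median-of-ratios scaling or quantile normalization, 0 with a common sum or only the 2 groups, and 0 to 3 without single libraries. HS against H2O2 went from 20 to 27 with median-of-ratios scaling, 26 with quantile normalization, 16 with no filter or a common sum, 14 with only the 2 groups, and 0 to 18 without single libraries. KCl against H2O2 went from 29 to 15 with no filter, 14 with median-of-ratios scaling or quantile normalization, 4 with a common sum, 0 with only the 2 groups and 0 to 26 without single libraries. The common-sum fit changes the library scale, and the fit of 2 groups has fewer samples; other causes were not tested. Of 62 calls, 60 held with a pseudocount of 0.1, 61 with 1, 36 with no filter, 40 with median-of-ratios scaling, 34 with quantile normalization, 15 with a common sum and 12 with only the 2 groups.

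Replicate numbers were shared by 1 library of each group, each number being 1 table, but no label ties them to a shared culture or day, so they share only a number. Replicate differences of pairs of groups correlated at 0.0624 to 0.264 over genes. With the replicate block, all 62 calls held and the counts were 19 for HS against UN, 2 for KCl against UN, 3 for H2O2 against UN, 10 for HS against KCl, 39 for HS against H2O2 and 51 for KCl against H2O2. Raising the threshold to 2 RPKM left 137 genes, and asking for 1 RPKM in each untreated library 151, with the same medians of log2 change. Depth in reads is unknown, so no counting interval could be given.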

Other observations

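Span, the length of the gene from start to end in GENCODE M21, ran from 1.0 to 405.2 kb with a median of 26.9 kb. Across the 155 genes it was weakly related to the log2 change, with Spearman's rho of 0.03 in heat shock, -0.10 under KCl and 0.11 under H2O2 (a description across genes, which share libraries).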
